A study of Mus musculus with 141 samples.

Results

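The mitochondrially encoded genes and their nuclear copies are 41 of the 17136 gene rows measured in single sorted mouse lung epithelial cells. They were listed by name: all 37 rows whose symbol begins with mt-, which are 2 rRNA, 13 mRNA and 22 tRNA rows, and the 4 nuclear pseudogenes *Gm29216*, *Gm28437*, *Gm28661* and *Gm10925*. The list was made with earlier results of these data known, and other nuclear rows that match mitochondrial genes lie outside it. The cells were CD31- CD45- E-cadherin+ tdTomato+ cells of the lungs of 1 male *ACID;R26tdTomato* mouse of 4 months (strain 129SV in the labels), doubly heterozygous for a *Cre-IRES-DsRed* cassette in exon 1 of the endogenous *Aqp5* gene and for a *ROSA26* tdTomato allele behind a floxed stop. Any cell that has expressed *Aqp5* keeps the reporter, so the sort can take in airway cells and some type 2 cells besides alveolar type 1 cells. Cells were captured one per site on a Fluidigm C1 chip with 20 numbered columns, and their polyadenylated RNA was copied from an oligo-dT primer and read near the 3′ end. There is 1 mouse and 1 condition, so the cells are 1 sample: values are described over cells and no test was made. Intervals are 95%, exact Poisson for reads and Clopper-Pearson for shares. Those on reads cover counting error only. They can be too narrow even for that, since reads were counted, PCR copies included, and no molecular identifiers are named. Those on numbers of cells treat cells as independent draws and do not cover differences between mice.

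A mitochondrion carries its own circular genome, which encodes both rRNAs of the mitochondrial ribosome, a set of tRNAs, and subunits of respiratory complexes I, III and IV and of the ATP synthase. Both strands are transcribed as long precursors, the tRNAs punctuate the mRNAs and are cut out of them, and most mature mRNAs and the rRNAs receive a short poly(A) tail, which is what lets an oligo-dT primer find them. Stretches of the mitochondrial genome have also been copied into the nuclear chromosomes over evolution, and a read from such a stretch can match both places. In single-cell work the share of reads on these genes is widely used as a measure of cell damage, and it also differs between cell types with their content of mitochondria.

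The 4 pseudogenes lie next to each other on the minus strand of chromosome 1 (GRCm38 with the GENCODE vM21 annotation, chr1:24613189-24616197), in the order *Gm28437* (783 bases), *Gm10925* (678 bases), *Gm28661* (681 bases) and *Gm29216* (492 bases). All are annotated as unprocessed pseudogenes. In the reference, *Gm28437* matched bases 1 to 783 of *mt-Co3* (cytochrome c oxidase subunit III) with 0 mismatches, *Gm28661* matched bases 1 to 681 of *mt-Co2* (subunit II) with 0, and *Gm10925* matched bases 1 to 678 of *mt-Atp6* (ATP synthase subunit a) with 0. *Gm29216* matched only the last 483 bases of *mt-Co1* (cytochrome c oxidase subunit I, bases 1063 to 1545), with 1 mismatch, and its first 9 bases lie outside the match. The last 60 bases of each match are shown because these libraries were read near the 3′ end and both partners carry the same letters there. They are printed 5′ to 3′ from the reference transcripts, which are of the C57BL/6J strain and not of the mouse studied.
mt-Co3 and Gm28437: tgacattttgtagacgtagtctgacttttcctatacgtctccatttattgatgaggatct
mt-Co2 and Gm28661: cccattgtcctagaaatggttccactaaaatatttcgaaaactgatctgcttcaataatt
mt-Atp6 and Gm10925: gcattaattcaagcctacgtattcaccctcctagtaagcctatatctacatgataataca
mt-Co1 and Gm29216: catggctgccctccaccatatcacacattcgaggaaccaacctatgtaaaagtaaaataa
These windows are chrM:9330-9389 (plus strand) and chr1:24613189-24613248 (minus) for the first pair, chrM:7634-7693 and chr1:24614885-24614944 for the second, chrM:8545-8604 and chr1:24613974-24614033 for the third, and chrM:6813-6872 and chr1:24615706-24615765 for the fourth.

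The single difference in the 4 matches is A1066T in *mt-Co1* against *Gm29216*, counted from 1 at the first base of the *mt-Co1* gene with the mitochondrial base first. The start of that match is shown with the differing base in capitals, chrM:6390-6422 for *mt-Co1* and chr1:24616156-24616188 (minus strand) for *Gm29216*.
mt-Co1: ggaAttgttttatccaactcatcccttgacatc
Gm29216: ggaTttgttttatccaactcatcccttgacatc
Every base of the match after this one is shared. The bases that could tell the partners apart are thus the beginning of the *mt-Co1* gene, which *Gm29216* does not hold, and in the other 3 pairs only the sequence beyond the ends of the match.

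Cells were split by the stated thresholds into 64 type 1 cells (at least 5000 CPM of *Ager*, where CPM, counts per 1e+06 reads, scales the reads of a gene to the total of the cell), 27 type 2 cells (at least 8000 CPM of *Sftpc*) and 50 others, called the rest. No cell passed both thresholds. The nearest cells lay at 5678 and 4696 CPM of *Ager*, at 8718 and 7774 CPM of *Sftpc*, and at 15.1% and 14.8% for the mitochondrial share of 0.15, with 17 cells within 1 percentage point of that share. The labels call all cells alveolar type 1, and the markers go against this for the type 2 cells and the rest. Of 12 further type 1 markers, 12 were at least 2-fold lower in type 2 than in type 1 cells, and of 10 type 2 markers 10 were at least 2-fold higher, where 18.3% of all 8012 genes of at least 10 CPM were at least 2-fold higher and 50.2% at least 2-fold lower. In the rest the summed level of 5 club cell markers had a median of 14736 CPM, against 364 CPM in type 1 and 182 CPM in type 2 cells, with a range from 5.26 to 503239 CPM, so the rest is a mixture with many airway cells. The hemoglobin rows had 0 reads, *Ptprc*, the leukocyte marker CD45 used in the sort, had 15 reads in 2 cells, and 4 endothelial markers summed to 0.707 CPM in type 1 cells, 0.276 CPM in type 2 cells and 17.8 CPM in the rest, where *Kdr* had 502 reads in 6 cells. The 5 fibroblast markers summed to 1.45 and 2.48 CPM in type 1 and type 2 cells but to 853 CPM in the rest, where the median cell had 0.528 CPM and the highest 6386 CPM, so some cells of the rest also carried reads of these genes. The part of these reads in the values given for the rest was not tested.

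A cell held between 91402 and 2170760 reads, and the medians were 426602 in type 1 cells, 306356 in type 2 cells and 536054 in the rest. Of 73191773 reads in all, the 37 mitochondrial rows held 8978956, and the 4 nuclear copies held 1689048 (2.31%). The mitochondrial share of a cell was highest in type 2 cells, where it ran from 3.08% to 36.9% with a median of 18.2%. In type 1 cells it ran from 4.99% to 33% (median 11.9%) and in the rest from 3.03% to 33.3% (median 9.96%). The ranges overlapped almost completely, but 20 of 27 type 2 cells lay above the type 1 median. Within the 13 chip columns that held both classes, the median of the type 2 cells was above that of the type 1 cells in 13. A column held only 1 to 3 type 2 cells, so the column medians here and below rest on few cells. Some lay close together, as in column 7 with 9.26% and 8.78%. At or over 0.15 were 16 of 27 type 2 cells (59.3%, 38.8% to 77.6%), 19 of 64 type 1 cells (29.7%, 18.9% to 42.4%) and 14 of 50 of the rest (28%, 16.2% to 42.5%). The median for type 2 cells was 13.8% on the first 10 chip columns and 22.1% on the others, and for type 1 cells 12% and 11.7%.

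**Figure D1:**
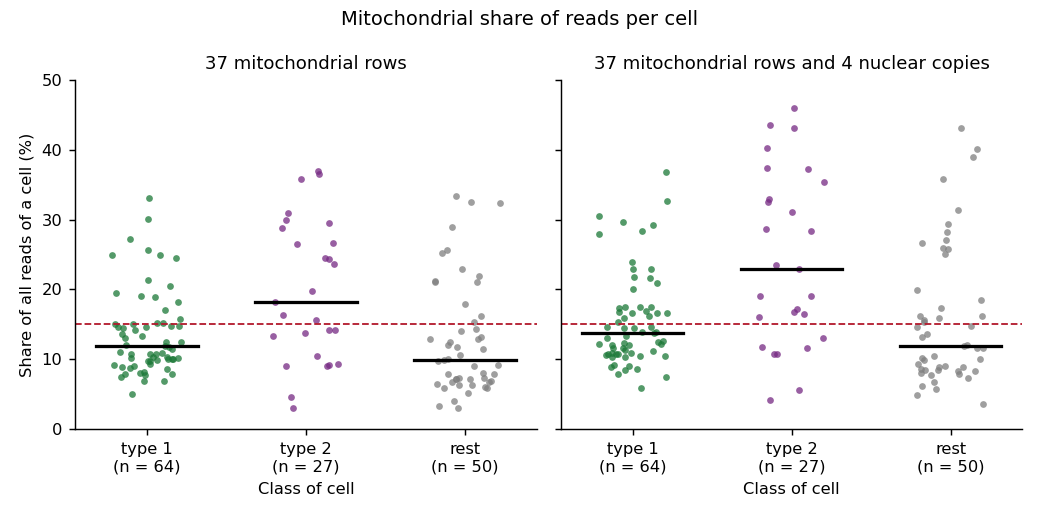
Share of all reads of a cell (percent, vertical axis) that fell on the 37 mitochondrial rows (left) and on these rows plus the 4 nuclear copies (right), for 64 type 1 cells, 27 type 2 cells and 50 other cells. Points are cells, black bars are medians, and the dashed line is the maximum of 15%; counting the copies moves the medians from 11.9%, 18.2% and 9.96% to 13.8%, 22.9% and 12%.

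The nuclear copies touch this share directly, because their reads carry mitochondrial sequence but a nuclear name. With the 4 copies counted as mitochondrial, the median rose to 13.8% in type 1 cells, 22.9% in type 2 cells and 12% in the rest. The number of cells at or over 0.15 went from 49 to 66. By class the number became 26 of 64, 20 of 27 and 20 of 50. The share also moved with depth. Over all cells its Spearman correlation with total reads was -0.44 and with the number of detected genes -0.54, and within type 1, type 2 and the rest the correlation with total reads was -0.27, -0.50 and -0.44. Total reads are the denominator of the share, so these values share that quantity, and the part of depth in the difference between classes was not tested. Chip columns differed as well, with column medians from 7.66% in column 17 to 21.2% in column 20, and 9 of the 11 cells of column 11 were at or over 0.15. Without column 11 the percentages at or over 0.15 were 24.1%, 56% and 25.5% in type 1, type 2 and the rest.

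The mitochondrial reads of type 1 cells were mostly ribosomal. The 2 rRNA rows, *mt-Rnr1* (12S rRNA of the small ribosomal subunit, chrM:70-1024) and *mt-Rnr2* (16S rRNA of the large subunit, chrM:1094-2675), made up a median of 67.4% of the mitochondrial reads of a type 1 cell (21.5% to 81.2%). In type 2 cells the median was 50.6% (34% to 74.1%) and in the rest 45.8% (1.63% to 72.7%). The classes overlapped in range, yet 26 of 27 type 2 cells and 48 of 50 of the rest lay below the type 1 median, and 5 cells of the rest lay below every type 1 cell. Of summed reads the rRNA part was 68.6% in type 1 cells, 51.4% in type 2 cells and 48% in the rest. The type 2 median was lower than the type 1 median in 12 of 13 chip columns with both classes, and that of the rest was lower in 16 of 18. The mRNA rows took nearly all that was left, with medians of 32.4%, 49.2% and 54.1%, and the tRNA rows took 0.101%, 0.242% and 0.239%. Over all cells the Spearman correlation of the rRNA part was 0.11 with total reads and 0.09 with the mitochondrial share. Within type 1, type 2 and the rest it was 0.09, 0.44 and 0.14 with total reads and 0.14, -0.31 and 0.26 with the share, so in type 2 cells the rRNA part moved with depth as well, and the part of depth in its values was not tested.

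**Figure D2:**
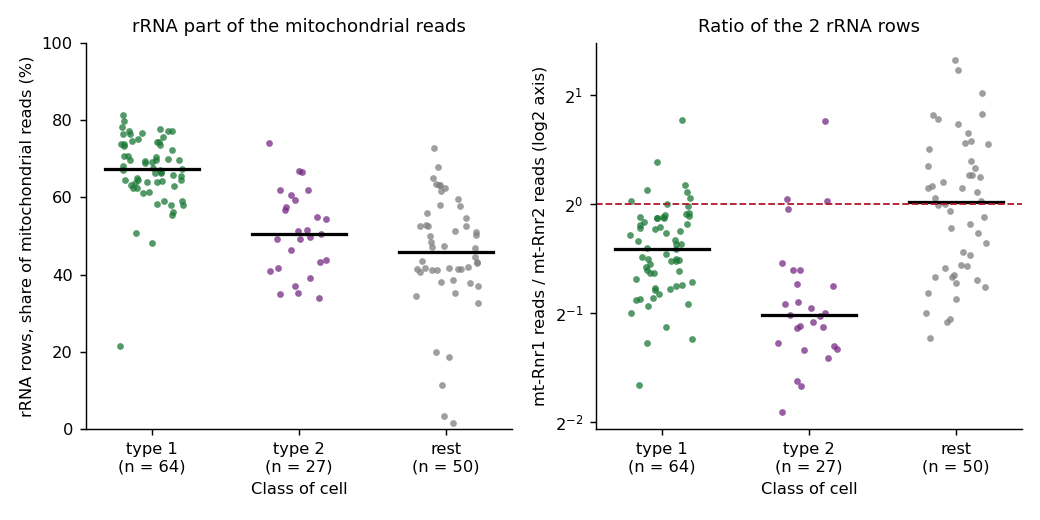
Left, share of the mitochondrial reads of a cell on the 2 rRNA rows (percent); right, *mt-Rnr1* reads over *mt-Rnr2* reads (log2 axis, dashed line at 1). Points are cells and black bars are medians; the rRNA part has medians of 67.4%, 50.6% and 45.8% in type 1 cells, type 2 cells and the rest, and the ratio has medians of 0.753, 0.494 and 1.01.

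The levels behind this make-up differed from type 1 cells in another way in type 2 cells than in the rest. The summed level of the mRNA rows was 4.01% of all reads in type 1 cells, 7.93% in type 2 cells and 5.30% in the rest. That of the rRNA rows was 8.80%, 8.47% and 4.92%. In summed reads type 2 cells thus held about as large a share of rRNA reads as type 1 cells beside more mRNA reads. The rest held fewer rRNA reads and somewhat more mRNA reads. Per cell, the median share of the rRNA rows in all reads was 7.69% in type 1 cells, 10.2% in type 2 cells and 5.07% in the rest. Of 27 type 2 cells 17 lay above the type 1 median. The medians of the mRNA rows were 4.04%, 7.75% and 4.72%.

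The 2 rRNA rows also stood in different proportion. *mt-Rnr1* had 37212 CPM (37144 to 37279) in type 1 cells, 28203 CPM (28104 to 28303) in type 2 cells and 23587 CPM (23533 to 23641) in the rest. *mt-Rnr2* had 50813 CPM (50734 to 50893), 56451 CPM (56310 to 56592) and 25589 CPM (25532 to 25645). The 12S rRNA was therefore lower and the 16S rRNA higher in type 2 than in type 1 cells, by log2 ratios of -0.40 and 0.15, which leaves neither past 2-fold. Per cell, *mt-Rnr1* ran from 8923 to 108258 CPM in type 1 cells (median 36417), from 3795 to 81054 in type 2 cells (median 27960) and from 324 to 97619 in the rest (median 24235). For *mt-Rnr2* the values were 8164 to 144350 (median 47180), 8294 to 165468 (median 58582) and 338 to 88347 (median 24321). The levels of both rows overlapped widely between the classes.

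The ratio of *mt-Rnr1* to *mt-Rnr2* reads had a median of 0.753 in type 1 cells (0.316 to 1.71), 0.494 in type 2 cells (0.267 to 1.69) and 1.01 in the rest (0.426 to 2.49). Of 27 type 2 cells 23 lay below the type 1 median, and 8 lay below every cell of the rest. In 11 of 13 chip columns the type 2 median was below the type 1 median, and in 13 of 13 it was below that of the rest. Both genes are transcribed together from the same strand, one after the other with the valine tRNA between them. Their longest runs of A inside the gene, at which an oligo-dT primer can also start, were 5 and 7 bases, shown in capitals with 30 bases on either side (chrM:710-774 and chrM:1458-1524, plus strand).
mt-Rnr1: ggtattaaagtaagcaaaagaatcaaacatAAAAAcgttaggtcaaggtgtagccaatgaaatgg
mt-Rnr2: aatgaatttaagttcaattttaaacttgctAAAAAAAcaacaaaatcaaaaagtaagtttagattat
Where the reads started within each gene is not recorded in the counts, so the part of internal priming in the ratio was not tested.

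In 5 cells, all of the rest, the rRNA part was under 20%, and 2 of them had almost no mitochondrial rRNA. One of them (column 4, row 4 of the chip) had 94 rRNA reads beside 5529 mRNA reads (1.63% of its mitochondrial reads) among 142003 reads in all, and another (column 9, row 4) had 186 beside 5030 (3.56%) among 159916. The other 3 cells had 11.5%, 18.7% and 19.9%, from 3796, 19677 and 5133 rRNA reads. The mitochondrial shares of all reads of the 5 were 4.07%, 3.26%, 18%, 7.21% and 5.97%, so 4 of the 5 lay under 0.15. The summed club cell markers of these 5 cells were 17302, 503239, 27583, 441336 and 424110 CPM, in the same order as the percentages. They did not carry one set of markers: the first had more reads of ciliated cell markers (25725 CPM) than of club cell markers and 3753 CPM of type 1 markers, the third had 7554 CPM of ciliated cell markers, and the last 2 had 9997 and 15661 CPM of type 2 markers.

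Among the 13 mRNA rows, reads per kilobase of gene (summed over all cells) put *mt-Co3* first with 689161, followed by *mt-Nd4* (complex I) with 615677, *mt-Cytb* (cytochrome b of complex III) with 430323, *mt-Co1* with 425372, *mt-Co2* with 411232, *mt-Atp6* with 369727 and *mt-Nd1* with 312102. The next were *mt-Nd2* with 191236, *mt-Nd3* with 114417, *mt-Atp8* with 98711 and *mt-Nd5* with 73132 reads per kilobase. *mt-Nd4l*, also of complex I, had 8135, and *mt-Nd6*, the only mRNA row on the minus strand, had 1680. Neighbours in this order were often not apart within cells: *mt-Cytb* was above *mt-Co1* in 55.3% of cells, *mt-Co1* above *mt-Co2* in 51.1%, *mt-Co2* above *mt-Atp6* in 53.2% and *mt-Atp8* above *mt-Nd5* in 49.6%. The clearer steps were *mt-Nd4* above *mt-Cytb* and *mt-Nd1* above *mt-Nd2*, each in 80.1% of cells, and *mt-Nd5* above *mt-Nd4l* in 97.2%.

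This order rested on the length correction and on how the copies were counted. The libraries were read near the 3′ end, so reads need not scale with the length of a gene. By reads without the correction *mt-Nd4* had the most (848403), followed by *mt-Co1* (657199) and *mt-Co3* (540302). With the reads of each copy added to its source gene, *mt-Co3* stayed first with 1409980 reads per kilobase, and the next were *mt-Co2* with 851750, *mt-Co1* with 793635 and *mt-Atp6* with 742188. *mt-Nd4* then ranked 5th and *mt-Cytb* 6th. The 4 genes with a listed copy were then the first 4, and the cytochrome c oxidase genes the first 3. Reads were added to these 4 genes only, so their rise follows from the list. Other genes with a near-even copy got none, such as *mt-Nd3* with 39817 reads beside 41576 of the nuclear row *Gm28438*. Some neighbouring genes also overlap: *mt-Atp8* and *mt-Atp6* share 43 bases, *mt-Nd4l* and *mt-Nd4* share 7, and *mt-Nd5* and *mt-Nd6* share 14 on opposite strands, and whether the counting used strand is not given in the sources used here. The levels of *mt-Atp8*, *mt-Nd4l* and *mt-Nd6* are therefore uncertain.

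**Figure D3:**
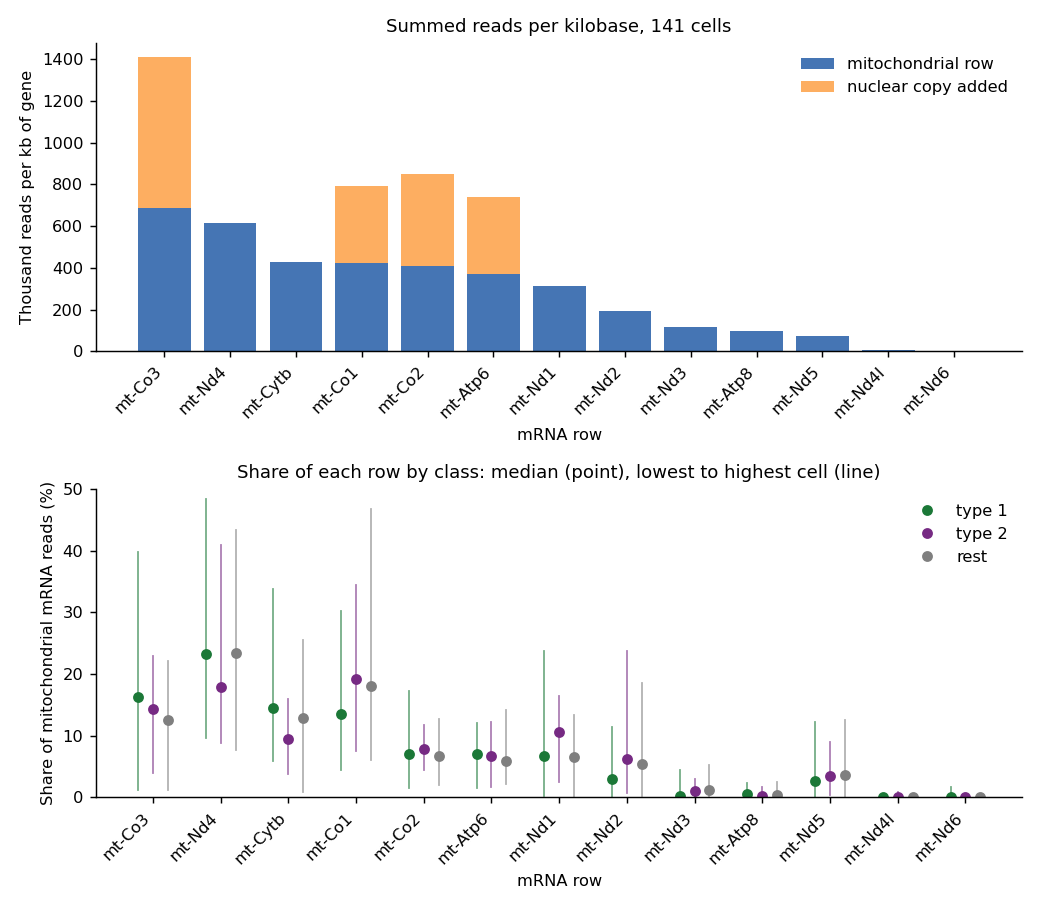
Top, reads per kilobase (axis in 1000 reads) of the 13 mRNA rows summed over all cells, with the reads of the nuclear copy stacked on its source gene; bottom, share of each row in the mitochondrial mRNA reads of a cell (percent), as the median (point) and the range (line) in type 1 cells, type 2 cells and the rest. The copies lift *mt-Co3* to 1409980, *mt-Co2* to 851750, *mt-Co1* to 793635 and *mt-Atp6* to 742188 reads per kilobase; the medians of *mt-Co1* are 13.6%, 19.2% and 18.1% and those of *mt-Nd4* 23.3%, 17.9% and 23.5% in type 1 cells, type 2 cells and the rest.

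The classes also differed in the parts that single genes took of the mRNA reads. *mt-Nd2* made up 3.39% of the summed mitochondrial mRNA reads in type 1 cells, 6.94% in type 2 cells and 5.83% in the rest. Its per-cell share had a median of 2.91% in type 1 (0.0274% to 11.4%), 6.30% in type 2 (0.676% to 23.7%) and 5.48% in the rest (0.155% to 18.6%), and 23 of 27 type 2 cells were above the type 1 median. *mt-Nd1* made up 7.54%, 10.5% and 6.87%, with 21 of 27 type 2 cells above the type 1 median and 22 of 27 above that of the rest. The cytochrome b gene differed in the other direction. *mt-Cytb* held 15.2%, 10.2% and 13%, and 3 of 27 type 2 cells were above the type 1 median. *mt-Nd4* held 23.2%, 18.9% and 24%, again with 3 of 27 type 2 cells above the type 1 median. *mt-Co1* held 14.7%, 18.7% and 18.9%, *mt-Co3* held 16.8%, 14.1% and 12.6%, *mt-Co2* held 7.59%, 8.25% and 6.97%, and *mt-Atp6* held 7.04%, 6.73% and 6.40%. These 8 rows made up most mRNA reads in every class. Of the rows with fewer reads, *mt-Nd5* held 3.0%, 3.98% and 3.73%, *mt-Nd3* held 0.820%, 1.19% and 1.17%, and *mt-Atp8* held 0.635%, 0.400% and 0.529%. The per-cell ranges of the classes overlapped for every row.

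As levels in all reads, 7 of the 13 mRNA rows were at least 2-fold higher in type 2 than in type 1 cells and 1 was at least 2-fold lower, against 18.3% and 50.2% of all 8012 genes. The median log2 ratio was 1.10 for these rows and -1.02 over all genes. *mt-Nd2* went from 1360 to 5501 CPM (log2 ratio 2.02), *mt-Nd1* from 3026 to 8357 CPM (1.47), *mt-Nd3* from 329 to 944 CPM (1.52), *mt-Nd5* from 1203 to 3157 CPM (1.39), *mt-Co1* from 5901 to 14850 CPM (1.33) and *mt-Co2* from 3048 to 6544 CPM (1.10). *mt-Nd4l* went from 13.3 to 96.4 CPM (2.86), and still from 13.3 to 64 CPM (2.26) without the type 2 cell that held 367 of its reads. The other 5 rows stayed within 2-fold, *mt-Atp6* with 0.92, *mt-Co3* with 0.73, *mt-Nd4* with 0.69, *mt-Cytb* with 0.40 and *mt-Atp8* with 0.31. Per cell, *mt-Nd2* ran from 13.7 to 4893 CPM in type 1 cells (median 1289) and from 396 to 14455 CPM in type 2 cells (median 5360), so the classes overlapped. The reads of *mt-Nd6* came from 25 cells, and 323 of its 872 reads from a single type 1 cell. Its log2 ratio of -3.57 became -2.68 without that cell. *mt-Nd6* passed the minimum of 10 CPM only through type 1 cells, with 21.8 CPM there and 1.84 CPM in type 2 cells. That it was counted as lower is thus partly set by the minimum.

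In the rest against type 1 cells, 31.2% of 9090 genes were at least 2-fold higher and 32% at least 2-fold lower. Of the 13 mRNA rows 2 were higher, *mt-Nd2* (log2 ratio 1.18) and *mt-Nd4l* (1.20), and *mt-Nd6* was lower (-1.98, or -1.09 without the same type 1 cell). With 5.54 CPM in the rest, *mt-Nd6* again passed the minimum only through type 1 cells. Both rRNA rows stayed within 2-fold, at -0.66 for *mt-Rnr1* and -0.99 for *mt-Rnr2*. *mt-Co1* was 0.76 higher in log2 terms and *mt-Co3* -0.01.

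Of the 4 nuclear copies, *Gm28437*, *Gm28661* and *Gm10925* had slightly more reads than their source genes, and *Gm29216* had fewer. Over all cells *Gm28437* had 565121 reads and *mt-Co3* 540302, so the copy held 51.1% of the pair (51.03% to 51.22%). *Gm28661* had 301314 reads beside 281283 of *mt-Co2* (51.7%, 51.6% to 51.8%). *Gm10925* had 253646 reads beside 251784 of *mt-Atp6* (50.2%, 50.05% to 50.32%). *Gm29216* had 568967 reads beside 657199 of *mt-Co1* (46.4%, 46.3% to 46.5%), although it matches only the last 483 of the 1545 bases of that gene. All 4 copies had reads in every cell.

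Within single cells the split stayed near even as well. The copy's part of the pair ran from 47.9% to 58.4% over cells for *Gm28437* (median 51.04%), from 46.9% to 59.2% for *Gm28661* (median 51.7%) and from 43.6% to 56.4% for *Gm10925* (median 50.1%). The exact 95% interval of a cell's own split included 50% in 90.8% of cells for *Gm10925*, 61% for *Gm28437* and 48.9% for *Gm28661*. For *Gm29216* it did so in 30.5%, and its part ran from 17.5% to 53.4% (median 47.4%). The lowest value was that of a type 1 cell (column 5, row 27) with 1404 reads of *Gm29216* and 6626 of *mt-Co1*. The 3 pairs matched over nearly their whole length stayed closer together than the pair matched over its 3′ part. By class the copy's part was 51.14%, 51.04% and 51.15% for *Gm28437* in type 1, type 2 and the rest, 52.1%, 51.5% and 51.6% for *Gm28661*, 49.98%, 50.43% and 50.22% for *Gm10925*, and 45.8%, 44.5% and 47.7% for *Gm29216*. Between cells under and at or over 0.15 it differed little, at 51.1% and 51.2% for *Gm28437* and 46.9% and 45.7% for *Gm29216*.

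**Figure D4:**
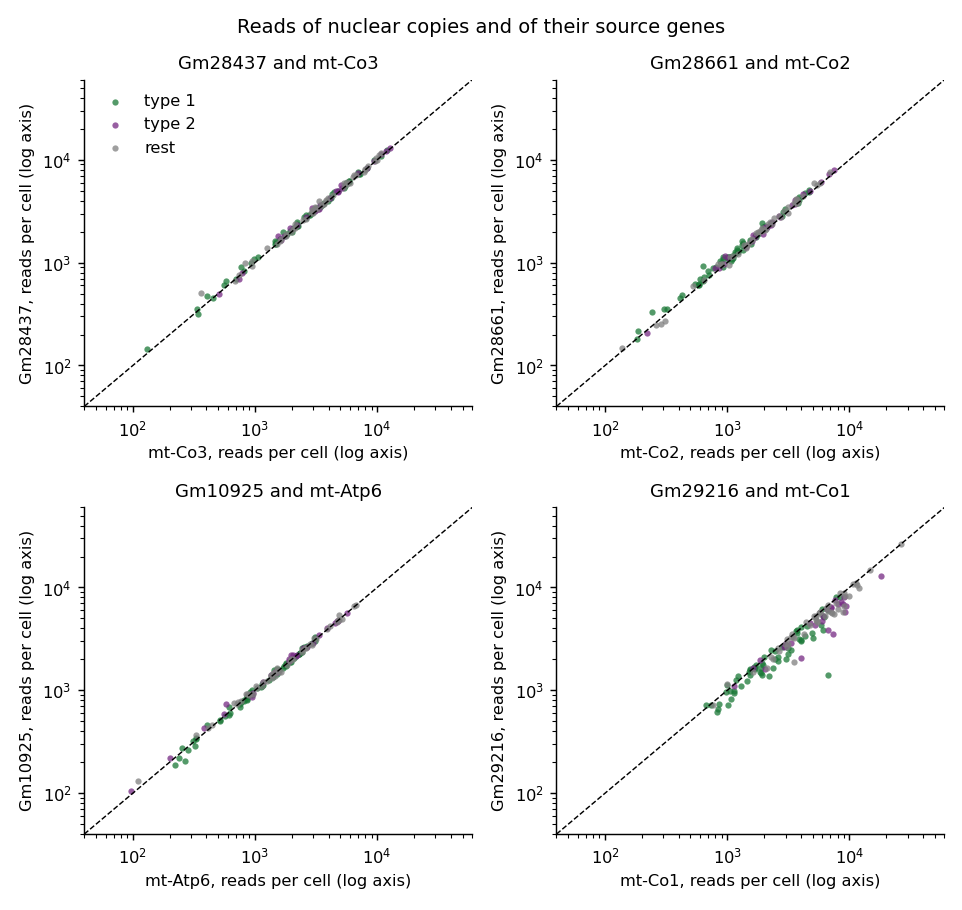
Reads per cell of each nuclear copy (vertical, log axis) against reads of its mitochondrial source gene (horizontal, log axis) in the 64 type 1, 27 type 2 and 50 other cells, coloured by class; the dashed line marks equal reads. The cells follow the line in all 4 pairs, with 51.1%, 51.7% and 50.2% of the pair's reads on the copy for *Gm28437*, *Gm28661* and *Gm10925*, and 46.4% for *Gm29216*, whose points spread below the line.

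Over cells, the CPM of each copy ran with that of its source, with Spearman correlations of 0.998 (*Gm28437*), 0.996 (*Gm10925*), 0.996 (*Gm28661*) and 0.953 (*Gm29216*), all over the full set of cells, whose values share library and depth within a cell. The copies therefore moved with their sources between classes: from type 1 to type 2 cells the log2 ratios were 1.25 for *Gm29216* beside 1.33 for *mt-Co1*, 1.07 for *Gm28661* beside 1.10, 0.94 for *Gm10925* beside 0.92 and 0.72 for *Gm28437* beside 0.73. Of the 4 copies 2 were at least 2-fold higher, against 18.3% of all genes. *Gm10925* joined them at 1.01 without the type 2 cell of its highest count (5630 reads, 3.83% of its reads in the 2 classes). Reads from the matched stretches cannot be assigned to the nucleus or the mitochondrion from sequence, and how the counting treated reads with several matches is not given in the sources used here, so the levels of the 4 copies and of *mt-Co1*, *mt-Co2*, *mt-Co3* and *mt-Atp6* are uncertain as separate rows.

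The 22 tRNA rows, which carry no poly(A) tail as mature tRNAs, held 20115 reads together. *mt-Td* (aspartate) alone held 10346 of them, with reads in every cell, and the next were *mt-Tc* (cysteine) with 1771, *mt-Tp* (proline) with 1764, *mt-Ta* (alanine) with 1630 and *mt-Tw* (tryptophan) with 1229. The sequences of these 5 rows are shown with the first of their longest runs of A in capitals, which is 2 to 4 bases long. They lie at chrM:6942-7011 (plus strand), chrM:5192-5257 (minus), chrM:15356-15422 (minus), chrM:5018-5086 (minus) and chrM:4950-5016 (plus).
mt-Td: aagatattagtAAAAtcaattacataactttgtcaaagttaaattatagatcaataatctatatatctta
mt-Tc: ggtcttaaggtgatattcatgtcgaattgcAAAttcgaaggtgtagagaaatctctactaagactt
mt-Tp: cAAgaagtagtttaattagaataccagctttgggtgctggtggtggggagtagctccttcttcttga
mt-Ta: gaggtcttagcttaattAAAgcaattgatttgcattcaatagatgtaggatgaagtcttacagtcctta
mt-Tw: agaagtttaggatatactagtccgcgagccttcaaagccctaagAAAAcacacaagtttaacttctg
*mt-Td* lies between *mt-Co1*, which ends at base 6872, and *mt-Co2*, which begins at base 7013. Over all cells its CPM had a Spearman correlation of 0.63 with that of *mt-Co1* and 0.47 with that of *mt-Co2*, values that share the depth of a cell.

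The other tRNA rows were uneven and often rested on a cell or a few. *mt-Td* had from 5.45 to 429 CPM in type 1 cells (median 63.7), from 10.5 to 814 CPM in type 2 cells (median 152) and from 29.9 to 1050 CPM in the rest (median 151). It was 65.3% of the tRNA reads in type 1 cells, 26.5% in type 2 cells and 61.6% in the rest. In type 2 cells more of the other rows were seen, with a median of 9 of 22 rows per cell (2 to 17), against 3 (1 to 10) in type 1 cells and 6 (1 to 14) in the rest. Of *mt-Tc*, 854 of 1771 reads were in the type 2 cell of column 19 and row 38. Without it *mt-Tc* stood at 48.4 CPM in type 2 cells against 0.321 CPM in type 1 cells, where it was read in 6 of 64 cells. Of *mt-Tw*, 765 of 1229 reads were in the cell of column 10 and row 30, one of the rest, and 314 in the type 2 cell of column 18 and row 29. Without these its log2 ratios of 4.66 (rest) and 5.12 (type 2) against type 1 became 0.47 and 2.82. *mt-Tp* had 98.9 CPM in type 2 and 5.79 CPM in type 1 cells (log2 ratio 4.10, or 3.86 without its highest cell) and was read in 24 of 27 and 19 of 64 cells, and *mt-Ta* had 51.3 and 12.6 CPM (2.03). Of the 6 tRNA rows of at least 10 CPM, 5 were at least 2-fold higher in type 2 than in type 1 cells, against 18.3% of all genes, and *mt-Td* was within 2-fold at 0.84. The minimum is taken over both groups. *mt-Tc*, *mt-Tp* and *mt-Tw*, with 0.321, 5.79 and 1.03 CPM in type 1 cells, passed it only through their type 2 reads. The count is thus partly set by the minimum and supports no difference by itself. In the rest against type 1 cells 3 of 5 were higher, against 31.2% of all genes, among them *mt-Td* (1.19). The others, *mt-Tp* and *mt-Tw*, passed the minimum only through reads of the rest, and *mt-Tw* there rested on the single cell named above.

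**Figure D5:**
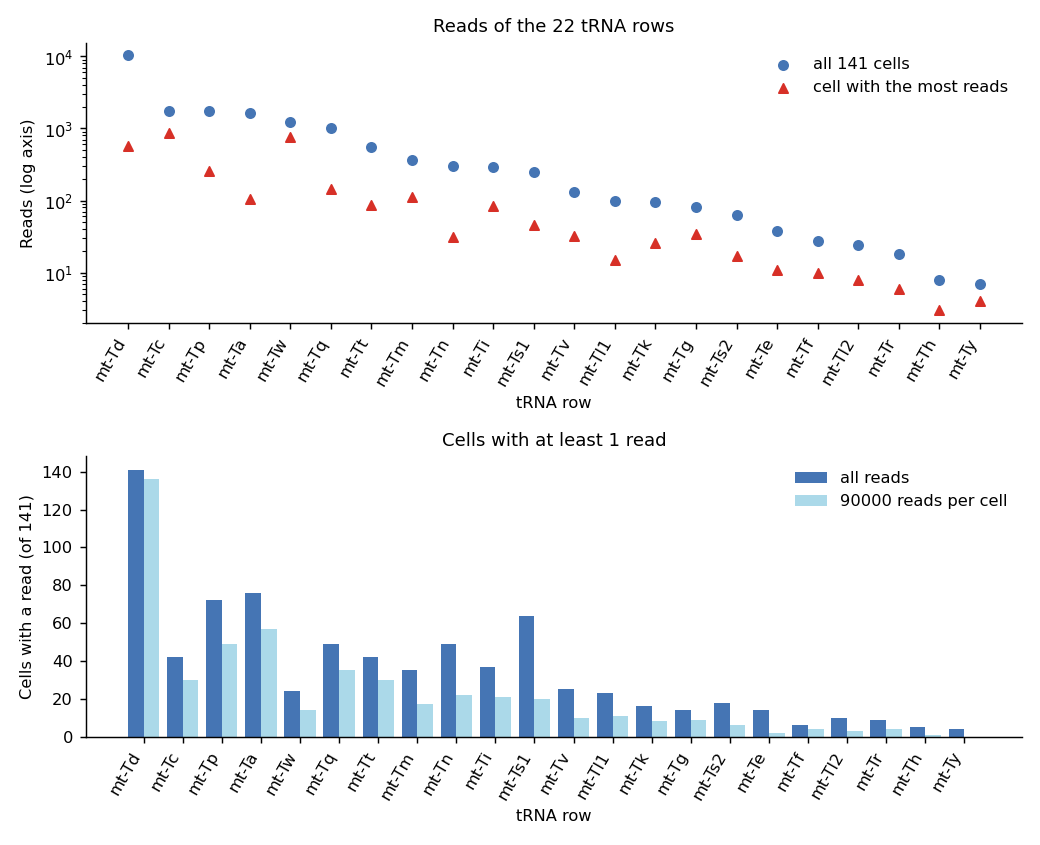
Top, reads of each of the 22 tRNA rows over all cells (circles, log axis) and in the cell with the most reads (triangles); bottom, number of cells with at least 1 read at full depth and after drawing 90000 reads from each cell. *mt-Td* has 10346 reads and is seen in every cell, and for *mt-Tc* and *mt-Tw* single cells hold 854 of 1771 and 765 of 1229 reads.

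The 17 tRNA rows not shown had from 7 (*mt-Ty*, tyrosine) to 1024 reads (*mt-Tq*, glutamine) and were read in 4 to 64 cells. Their detection depended on depth: after drawing 90000 reads from each cell, *mt-Td* was seen in 96.5% of cells, *mt-Tq* in 24.8% in place of 34.8%, and *mt-Ty* in none of the 4 cells that had it at full depth. The 8 tRNA rows on the minus strand held 6785 reads, and the 13 plus-strand rows other than *mt-Td* held 2984. Since the use of strand in the counting is not given in the sources used here, reads of minus-strand tRNAs cannot be told apart from antisense reads of the other precursor.

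The make-up of the mitochondrial reads differed little between cells under and at or over 0.15. The rRNA part of summed reads was 57.7% in the 92 cells under 0.15 and 58.1% in the 49 others, and the per-cell medians were 60.3% and 57.7%. Within classes it went both ways. In type 1 cells the summed rRNA part was 66.9% under and 71.2% at or over 0.15, with medians of 66.6% and 70.4%. In type 2 cells it was 57.3% and 47.8%, with medians of 54.3% and 47.8%. In the rest it was 47.9% and 48.2%. The *mt-Rnr1* to *mt-Rnr2* ratio of summed reads kept its order on both sides, at 0.715, 0.479 and 0.920 under 0.15 in type 1, type 2 and the rest and at 0.758, 0.516 and 0.925 over it. Among the mRNA rows, the parts under and at or over 0.15 were 22.8% and 22.1% of mRNA reads for *mt-Nd4*, 17.4% and 17.5% for *mt-Co1* and 5.63% and 4.74% for *mt-Nd2*. The part of *mt-Nd6*, which rests on 872 reads, was 0.0164% and 0.0334%, a log2 ratio of 1.03. These were 370 reads under and 502 at or over 0.15. A single type 1 cell at or over 0.15 held 323 of the latter, so the direction of this ratio rests on that cell.

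Nuclear genes were compared across the same split to set the mitochondrial rows beside their nuclear partners, on CPM of the reads outside the 37 rows. Of 9391 genes of at least 10 CPM, 18.8% were at least 2-fold higher in cells at or over 0.15 and 36.8% at least 2-fold lower, with a median log2 ratio of -0.36. Of 74 proteins of the mitochondrial ribosome, 8 were higher and 47 lower (median -1.54), and of 29 enzymes of mitochondrial DNA and RNA 4 were higher and 13 lower (median -0.69). Of complex I 2 of 37 subunits were higher and 12 lower (median -0.49), of complex II 0 and 1 of 4 (-0.44), of complex III 0 and 1 of 9 (-0.23), of complex IV 0 and 4 of 12 (-0.17) and of the ATP synthase 0 and 2 of 16 (-0.59). Over all cells the mitochondrial ribosome list was the one of these furthest below the median of all genes, and the share lowered in each respiratory complex was under the background, which did not hold for every complex within the classes.

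These values rested on low and scattered reads, and the minimum is taken over both groups, here and within the classes. *Mrpl57* (0 CPM at or over and 78.6 CPM under 0.15), *Mrpl41* (0.309 and 74.5 CPM) and *Pnpt1* (0.155 and 35.1 CPM) passed it only through cells under 0.15. The counts and medians of the lists are thus partly set by the minimum and support no difference by themselves. Summed over its list with no minimum, the mitochondrial ribosome had 2819 CPM at or over 0.15 and 4583 CPM under it. On the mean over cells of log2(CPM + 1), in place of summed reads, 81 genes were at least 2-fold higher and 1316 lower, against 1765 and 3460. *Pnpt1*, an exonuclease of mitochondrial RNA, had 2 reads in 2 of 49 cells at or over 0.15 and 1802 reads in 9 of 92 cells under it, and *Tufm*, the mitochondrial elongation factor Tu, had 12 in 1 and 3417 in 17. *Mterf2*, a mitochondrial termination factor family member, had 0 and 850 reads, the latter all in 1 cell. The ribosomal proteins *Mrpl57*, *Mrpl41* and *Mrps12* had 0, 4 and 3 reads in cells at or over 0.15 and 4032, 3821 and 2479 reads in 20, 12 and 13 cells under it. Among the complexes *Ndufs4* had a log2 ratio of -3.55, *Ndufs1* of 2.89 with 42.5% of its reads in 1 cell, and *Ndufs3* of -2.57. For complex II the values were -1.84 (*Sdhd*), -0.54 (*Sdhb*) and -0.35 (*Sdhc*), and for complex III -1.86 (*Uqcrb*), -0.78 (*Uqcr10*) and -0.74 (*Uqcrc1*). *Cox4i1*, a core nuclear subunit of cytochrome c oxidase, went from 1256 to 366 CPM (-1.78, in 83 of 92 and 35 of 49 cells), *Cox7a2* had -1.27 and *Cox6a2* -1.20. *Atpif1*, the inhibitor of the ATP synthase, had -1.40, *Atp5g3* -1.12 and *Atp5a1* -0.86.

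Depth and class moved with this split. Median total reads were 553963 under and 292455 at or over 0.15. Of 10 type 2 markers 5 were at least 2-fold higher and 0 lower in cells at or over 0.15, and of 5 club cell markers 5 were lower. Of 9 genes listed for RNA quality and stress 0 were higher and 2 lower (median -0.53). Among them *Malat1*, a nuclear RNA, was 0.91 higher in log2 terms, which is within 2-fold. Of all genes 18.8% were higher and 36.8% lower. The part of these in the values of the nuclear lists was not tested. Within type 1 cells 19.8% of 7952 genes were at least 2-fold higher and 46.5% lower, with a median of -0.73. There the enzymes of mitochondrial DNA and RNA had the lowest median of these lists, with 4 of 28 higher and 19 lower (median -5.02). Of 59 mitochondrial ribosome proteins 9 were higher and 33 lower (-1.09). The enzyme median rests on genes read in few cells, such as *Ssbp1* with 2 reads against 1979, 70.1% of them in 1 cell. Summed over the list, the enzymes had 734 CPM at or over 0.15 and 1162 CPM under it. Of complex I 6 of 37 were higher and 10 lower, of complex II 0 and 2 of 4, of complex III 1 and 4 of 9, of complex IV 4 and 6 of 14 and of the ATP synthase 0 and 5 of 16. Within type 2 cells 29.6% of 6320 genes were higher and 43.4% lower, with a median of -0.51. Of 51 mitochondrial ribosome proteins 7 were higher and 39 lower (median -4.11), and of 16 enzymes 7 and 8 (-0.93). Summed over the lists, the ribosome proteins had 1462 CPM at or over 0.15 and 3744 CPM under it. The enzymes had 940 and 773 CPM, so their summed level went the other way from their median. Of complex I 8 of 37 were higher and 17 lower, of complex II 2 and 1 of 4, of complex III 2 and 3 of 9, of complex IV 1 and 6 of 12 and of the ATP synthase 2 and 4 of 15, so the shares lowered in complexes I and IV were above the background. The 4 nuclear copies went with the mitochondrial reads that define the split: 4 of 4 were at least 2-fold higher over all cells and within type 2 cells, and 0 of 4 within type 1 cells, where their median was 0.96.

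The rows most like the mitochondrial mRNAs were nuclear copies. Among 1221 nuclear rows with reads in at least 50% of the cells, the 5 whose CPM followed the mitochondrial mRNA share most closely over all cells were *Gm28661* (Spearman 0.85), *Gm13340* (0.85), *Gm29216* (0.82), *Gm10925* (0.79) and *Gm13341* (0.79), all of them pseudogenes that match a mitochondrial gene. The 5 at the other end were *Gm1821* (-0.56), *Eif1-ps1* (-0.56), *Ubb* (-0.54, a ubiquitin gene), *Gm8797* (-0.53) and *Prdx6* (-0.52, a peroxiredoxin). *Gm1821* and *Eif1-ps1* are annotated as processed pseudogenes, whose reads can belong to their parent genes.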

How the data were processed

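Single cells of 1 mouse were profiled by 3′-end RNA sequencing on a C1 chip whose capture sites had been checked by microscopy. After trimming (Trim Galore) and quality checks (FastQC), the authors aligned reads to the mouse genome GRCm38 using HISAT2. The deposited counts are their whole-number featureCounts totals per gene and cell, not normalized, for 17136 genes. Versions and the settings for strand and multiple matches are not given in the sources used here. The depth was 91402 to 2170760 reads per cell, no 2 columns were identical, and no doublet caller was run.

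The 41 rows, the classes and the gene lists were chosen with earlier results of these data known. Values are shares of reads, CPM of summed reads, log2 ratios of CPM with groups of fewer than 3 reads set to 3, and medians over cells. Since all cells are 1 sample, no test was made. A gene was counted as higher or lower at a ratio of at least 2-fold among genes of at least 10 CPM over both groups. Named were all 41 rows (17 of the tRNA rows by range), the 3 genes of each nuclear mitochondrial list with the largest ratio, and the 5 nuclear genes with the highest and the 5 with the lowest correlation with the mRNA share. Reference transcripts (GENCODE vM21, which held 94.0% of symbols) were compared with blastn 2.17.0 at a minimum of 95% identity over 100 bases. All else was computed in Python 3.11.15 (pandas 2.3.3, numpy 2.4.6, scipy 1.17.1) and drawn with matplotlib 3.10.9. The computation of the ratios was checked on simulated data for cells at or over against under 0.15: of 200 genes changed among 9391, 200 had the right direction. The simulated counts were Poisson draws for every cell from 1 pooled profile. They held no genes scattered over few cells, no classes and no PCR copies, so this says nothing about how far the real ratios can be trusted. Alternatives changed the rows counted, the depth (90000 reads per cell), the maximum, the class thresholds, the chip columns, the weight of cells and the length correction.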

Additional observations from a re-analysis of the deposited data

Results flagged for a closer look

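Signal on mitochondrial sequence was also present in 7 nuclear rows outside the 41, found by comparing reference transcripts. *Gm28438* had 41576 reads beside 39817 of *mt-Nd3*, which it matches over 345 bases at 99.7% identity, and *Gm10222* had 2453 reads beside 2416 of *mt-Nd4l*, matched over 294 bases at 100%. Both lie on chromosome 1 beside the 4 copies described. *Gm28439*, in the same stretch, matches bases 1 to 876 of the 1378 bases of *mt-Nd4* at 100% and had 31405 reads beside 848403. On chromosome 2, *Gm13340* had 72020 reads (97.6% identity over the 1545 bases of *mt-Co1*), *Gm13341* had 38363 (95.9% over 684 bases of *mt-Co2*) and *Gm13339* had 15994 (96.7% over 510 bases of *mt-Nd2*). *Gm4076* on chromosome 13 had 8299 reads (95.2% over 954 bases of *mt-Nd5*). Together the 7 rows held 210110 reads (0.287% of all), and with all 11 nuclear rows counted as mitochondrial 67 cells were at or over 0.15.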

How the results depend on the processing

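Over the alternatives run for the 16 main results, 81 values stayed and 44 moved by more than their 95% interval (counts of genes by over 1.5 times). Type 2 cells had the highest median share and the highest percentage of cells at or over the maximum under each setting run, while type 1 cells and the rest changed places under several. With the 13 mRNA rows only, the median shares were 4.04%, 7.75% and 4.72% in type 1, type 2 and the rest, and the percentages of cells at or over 0.15 were 0, 18.5 and 10.0. With a maximum of 0.10 the percentages were 70.3, 77.8 and 50, and with 0.20 type 1 cells had 14.1. The rRNA percentage of mitochondrial reads kept the order type 1, type 2, rest under each setting. It was 60.1, 42.2 and 39 with the 4 copies added, 68, 49.2 and 47 at 90000 reads per cell, 67.1, 50.9 and 45.3 as a mean over cells, 68.5, 53.6 and 48.9 for columns 1 to 10 of the chip, 68.7, 50.8 and 46.4 for columns 11 to 20, 67.8, 50.9 and 47.6 without column 11, and 68.9, 50.8 and 49.3 with doubled thresholds. With halved thresholds it was 49.7 and 48.5 in type 2 and the rest, with CPM of non-mitochondrial reads for the thresholds 51.1 and 48.1, and without the cell with the most rRNA reads 68.2 in type 1 and 47.2 in the rest. *Gm29216* held 47.4% of its pair as the median over cells and 46.6% at 90000 reads per cell. Of the 13 mRNA rows, 3 kept their rank without the length correction and 8 with the copies added. Genes at least 2-fold higher in cells at or over 0.15 numbered 1765, but 3399 with no minimum and 81 on the mean over cells of log2(CPM + 1), where 1316 in place of 3460 were lower. The copies added to the rRNA part and the mRNA order, the 11 nuclear rows added to the share, column 11 left out, thinning of the pairs and the top cell left out of each row's comparison between classes were chosen after seeing the data. No paired analysis was possible because all cells belong to 1 sample of 1 group. Depth limits the tRNA rows and *mt-Nd6* most.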
